A study of Mus musculus with 6 samples.

Results

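Among 54446 gene IDs counted in a YTHDF2 RNA immunoprecipitation (RIP) experiment, 6 belong to short, highly structured noncoding RNAs that work as the RNA part of ribonucleoproteins. They are Rn7s1 (ENSMUSG00000099250) and Rn7s2 (ENSMUSG00000099021), copies of 7SL RNA, Rn7sk (ENSMUSG00000065037), which encodes 7SK RNA, Rmrp (ENSMUSG00000088088), the RNA of RNase MRP, Rpph1 (ENSMUSG00000092837), the RNA of RNase P, and Terc (ENSMUSG00000064796), telomerase RNA. They were chosen by Ensembl gene ID, from a list drawn up for this work with the read counts of the YTHDF2 immunoprecipitate (IP) and of the Input in these libraries already known. The levels in IP and Input, and the differences between them, are therefore a description, and no test is read for them. The list pairs each ID with its symbol. That pairing was not checked against a second source, because 0 of 49997 rows of the RefSeq gene table used here carry an Ensembl ID.

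The study looked for the RNAs that YTHDF2 binds in regulatory T (Treg) cells of tumours. Tumours of the mouse melanoma line B16F10 were raised under the skin of mice. Live CD45+ CD4+ cells with a Foxp3-GFP reporter were sorted from the tumours, lysed and incubated with beads carrying an anti-YTHDF2 antibody, which gave 3 IP libraries, and part of the lysate was kept as 3 Input libraries. All 6 libraries carry the genotype label WT, are numbered 1 to 3 within each group and were prepared with the same strand-specific total RNA kit. Whether a replicate is a separate animal, a pool or a repeat of 1 lysate is not labelled, so the spread between libraries may be technical. A precipitation without the specific antibody was not analysed here, so each difference below is one of level between IP and Input, not of binding over a background precipitate. Treg markers were not checked, since the files give no symbols.

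YTHDF2 is a cytoplasmic protein that recognises N6-methyladenosine in mRNA and brings bound transcripts to the decay machinery. The main known roles of the 6 RNAs are as follows. 7SL is the scaffold of the signal recognition particle, which docks ribosomes making secreted and membrane proteins at the endoplasmic reticulum. 7SK is a nuclear RNA that holds the transcription elongation factor P-TEFb in an inactive complex. RNase P RNA is the catalytic subunit of the enzyme that trims the 5′ leaders of precursor tRNAs, and the related RNase MRP RNA acts in the processing of ribosomal RNA precursors. Telomerase RNA carries the template for telomere repeats. In mammals, telomerase RNA is made by RNA polymerase II and the others by RNA polymerase III.

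RefSeq, on the mouse assembly GRCm38.p6, places Rn7sk on chromosome 9 from 78175302 to 78175633, a gene of 332 bases. Rpph1 spans 325 bases on chromosome 14, from 50807447 to 50807771, and ends or starts 126 bases from its nearest neighbour, Parp2. The 7SL copies lie on chromosome 12 and span 299 bases each. Rn7s1 runs from 69159295 to 69159593, with Rps29 at a distance of 109 bases, and Rn7s2 from 69361183 to 69361481, 201590 bases further on. Terc spans 397 bases on chromosome 3, from 96414437 to 96414833. Rmrp spans 275 bases on chromosome 4, from 43492785 to 43493059, and its nearest gene, Ccdc107, is 281 bases away. All 6 symbols were found in the RefSeq table, which gives no strand. No other gene of that table overlaps any of the 6. Overlap in the annotation used for counting was not checked.

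The IP libraries held 6847731 to 8465453 gene-assigned reads and the Input libraries 10029733 to 14704617. Outside annotated features lay 71.7% ± 0.434 of the IP reads and 50.4% ± 1.08 of the Input reads (SD, n = 3 each). Of the reads, 3.09% ± 0.242 in the IP and 9.44% ± 0.244 in the Input had several alignments (SD, n = 3 each). Ambiguous reads, which the counter could not assign to a single feature, made up 0.409% ± 0.0120 in the IP and 1.24% ± 0.0210 in the Input (SD, n = 3 each). None of these categories enters the counts below, and their part in the results was not tested. IP replicate 3 stood apart from the other IP libraries, with a read for 14200 gene IDs, against 19991 in IP replicate 1 and 18501 in IP replicate 2.

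Of the 6 RNAs, 5 were detected in the Input, and for each of the 5 the highest IP library lay below the lowest Input library, a pattern that 23.7% of the 15615 genes tested also had. By counted reads, 7SK was the most abundant by far and was still well covered in the IP, 14.1-fold below its Input level. RNase P RNA was reduced further, to a handful of reads. The 7SL copies and telomerase RNA had 1 read among them over the 3 IP libraries. Rmrp was listed with 0 reads in all 6 libraries, and the files do not show whether reads of RNase MRP RNA were counted under another gene ID or in a summary category. The set took 0.0443% ± 0.0120 of gene-assigned reads in the IP and 0.577% ± 0.0588 in the Input (SD, n = 3 each). Rn7sk alone made up 99.7% to 99.9% of the reads of the set in the IP libraries and 97.7% to 99.1% in the Input libraries.

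**Figure D1:**
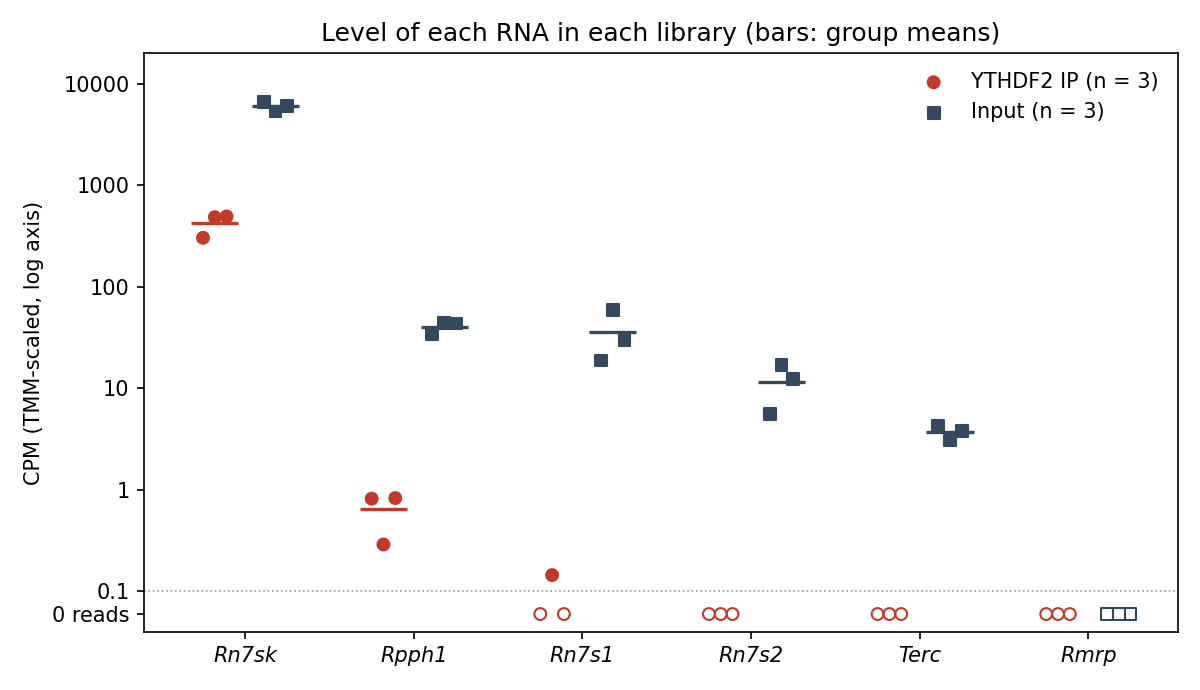
Levels in CPM (read counts scaled to library size, log axis) of the 6 RNAs in each of the 3 YTHDF2 IP libraries (circles) and 3 Input libraries (squares), with open symbols in the bottom strip for libraries with 0 reads and bars for the mean where a group has at least 2 values above 0. The IP circles lie below the Input squares for 5 RNAs, with Rn7sk between 303 and 492 CPM in the IP and between 5310 and 6609 CPM in the Input, and Rmrp is at 0 reads in both groups.

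Rn7sk had 2588, 3336 and 4143 reads in IP replicates 1, 2 and 3, against 91672, 50325 and 69936 reads in Input replicates 1, 2 and 3. Scaled to the library sizes, with TMM factors that correct for differences in RNA composition, these were 303, 484 and 492 CPM in the IP, against 6609, 5310 and 6059 CPM in the Input. The groups lay far apart: over the 9 pairs of an IP with an Input library, the level was 10.8-fold to 21.8-fold lower in the IP. The means were 426 ± 107 CPM in the IP and 5993 ± 652 CPM in the Input (SD, n = 3 each), so the mean was 14.1-fold lower in the IP. The fit gave a log2 fold change of IP over Input of -3.81 ± 0.20 (SE).

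The place of 7SK among all transcripts moved as well. Rn7sk was the gene ID with rank 8 by reads in each of the 3 Input libraries. In the IP it ranked 554, 274 and 223 in replicates 1, 2 and 3. This nuclear RNA thus remained among the abundant gene IDs of the IP libraries, of which 14200 to 19991 had a read. Of the 15615 genes tested, 4.15% had a lower log2 fold change than Rn7sk.

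RNase P RNA was far less abundant than 7SK. Rpph1 had 7, 2 and 7 reads in IP replicates 1, 2 and 3, against 476, 415 and 501 reads in Input replicates 1, 2 and 3. This came to 0.820, 0.290 and 0.831 CPM in the IP, against 34.3, 43.8 and 43.4 CPM in the Input. All IP values were below 1 CPM and all Input values above 30 CPM. The means were 0.647 ± 0.309 CPM in the IP and 40.5 ± 5.36 CPM in the Input (SD, n = 3 each), which is 62.6-fold lower in the IP. The 95% exact interval of the ratio of pooled Input to pooled IP reads, scaled to library size, was 36.5 to 104, for counting error only. The log2 fold change was -5.92 ± 0.67 (SE), and 1.90% of the genes tested had a lower one.

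The ratio of 7SK to RNase P reads is described here without a test, as it comes from the contrast that chose the set. Within a library, the number of Rn7sk reads for each Rpph1 read was 370, 1668 and 592 in IP replicates 1, 2 and 3, against 193, 121 and 140 in Input replicates 1, 2 and 3. The lowest IP ratio lay above the highest Input ratio, although the IP ratios rest on 2 to 7 Rpph1 reads each. The nearest intervals overlap: IP replicate 1 had a 95% exact interval of 179 to 920 and Input replicate 1 one of 176 to 211. These ratios need no scaling between libraries.

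The 7SL copies were detected in all Input libraries and all but lost in the IP. Rn7s1 had 0, 1 and 0 reads in IP replicates 1, 2 and 3, against 261, 560 and 348 reads in Input replicates 1, 2 and 3. The Input values came to 18.8, 59.1 and 30.1 CPM, with a mean of 36.0 ± 20.8 CPM (SD, n = 3). Rn7s2 had 0 reads in each IP library and 78, 161 and 143 reads in Input replicates 1, 2 and 3, or 5.62, 17.0 and 12.4 CPM. Against a floor of 3 reads per IP library, the Input mean of 11.7 ± 5.72 CPM (SD, n = 3) puts Rn7s2 in the IP at least 30.6-fold lower. With the copies summed, 1 IP read stood against 1551 Input reads, a scaled ratio of Input to IP of 1060 with a 95% exact interval for counting error of 190 to 41899.

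Rn7s1 and Rn7s2 are known as near-identical copies, though their sequences were not compared here. Reads that align to both cannot be assigned to 1 of them. Reads with several alignments form a summary category that is not part of the counts used here. The split between the copies is thus uncertain, and reads of either copy may lie among those with several alignments. In the Input, Rn7s1 had 3.35, 3.48 and 2.43 times the reads of Rn7s2 in replicates 1, 2 and 3. The 95% exact intervals, 2.59 to 4.37, 2.91 to 4.17 and 2.00 to 2.98, overlap for each pair of libraries.

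Telomerase RNA was the least abundant of the RNAs detected. Terc had 0 reads in each IP library and 59, 29 and 44 reads in Input replicates 1, 2 and 3, or 4.25, 3.06 and 3.81 CPM. Against the floor of 3 reads per IP library, the Input mean of 3.71 ± 0.603 CPM (SD, n = 3) puts Terc in the IP at least 9.73-fold lower. For RNase MRP RNA, no fold can be given. Rmrp had 0 reads in all 3 IP and all 3 Input libraries, where 3 reads correspond to 0.351 to 0.436 CPM in the IP and 0.216 to 0.317 CPM in the Input.

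**Figure D2:**
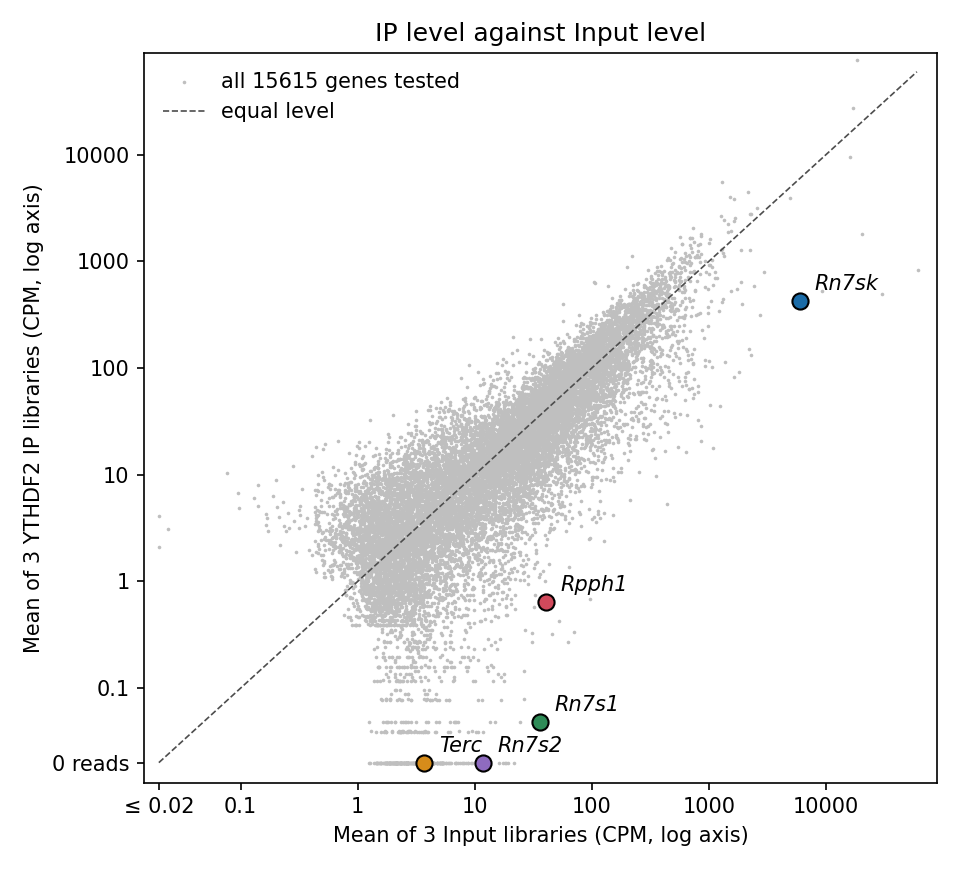
Mean of 3 IP libraries (vertical, CPM) against mean of 3 Input libraries (horizontal, CPM), both on log axes, for all 15615 genes tested (grey; means of 0.02 CPM or less are drawn at the left edge) and the 5 RNAs that were tested (coloured), with a dashed line at equal level. Rn7sk lies below the line at 5993 CPM in the Input, Rpph1 and Rn7s1 lie near the lower edge of the cloud at their Input levels, and Terc and Rn7s2 lie in the strip of genes with 0 IP reads.

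Across the 15615 genes tested with edgeR's quasi-likelihood test, 954 were called depleted from the IP (Benjamini-Hochberg adjusted p under 0.05), or 6.11%. Of the 6 RNAs, 5 passed the filter on low counts and 4 were called depleted, Rn7sk, Rpph1, Rn7s1 and Rn7s2. Terc did not pass the test and Rmrp was not tested. Rpph1, Rn7s1, Rn7s2 and Terc passed the filter through their Input counts alone and so had to differ, and the set was chosen with this contrast known, so nothing is read from the count. The same holds for the 5 RNAs whose IP libraries all lay below the Input libraries.

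Gene IDs without a read in an IP library were common at low Input levels. At equal shares of the library, Rn7s1 was expected to have 248 to 308 reads in an IP library, Rpph1 279 to 346, Rn7s2 80.4 to 99.6 and Terc 25.5 to 31.7. Among the 2590 gene IDs within 1.5-fold of the Input level of Terc, 19.9%, 25.7% and 50.2% had no read in IP replicates 1, 2 and 3. In all 3 IP libraries at once, 172 of them had no read, or 6.64% (95% exact interval 5.71% to 7.67%). Why these gene IDs, or Terc, had no IP read was not tested.

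At higher Input levels, gene IDs without reads became fewer. Around the level of Rn7s2, 3.89%, 6.89% and 26.9% of 2161 gene IDs had no read in IP replicates 1, 2 and 3, and 20 had none in all 3, or 0.925% (0.566% to 1.43%). Around the level of Rn7s1, 0.326%, 0.897% and 7.54% of 2452 gene IDs had no read in IP replicates 1, 2 and 3. Of these gene IDs, 0 had none in all 3, which allows a share of up to 0.150% at the upper end of the exact interval. Rn7s1 itself had 1 IP read, and 1 of these gene IDs, or 0.041%, had as few over the 3 IP libraries. Around the level of Rpph1 the shares without a read were 0.286%, 0.655% and 5.93% of 2444 gene IDs. Over the 3 IP libraries, 6 of them, or 0.245%, had as few reads as Rpph1. The RNAs were chosen with this contrast known, so these shares are a description and nothing is read from them. IP replicate 3 had the highest share of gene IDs without a read at each of these levels. Without that library, Rn7s2 and Terc still had no IP read and Rn7s1 still had 1.

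**Figure D3:**
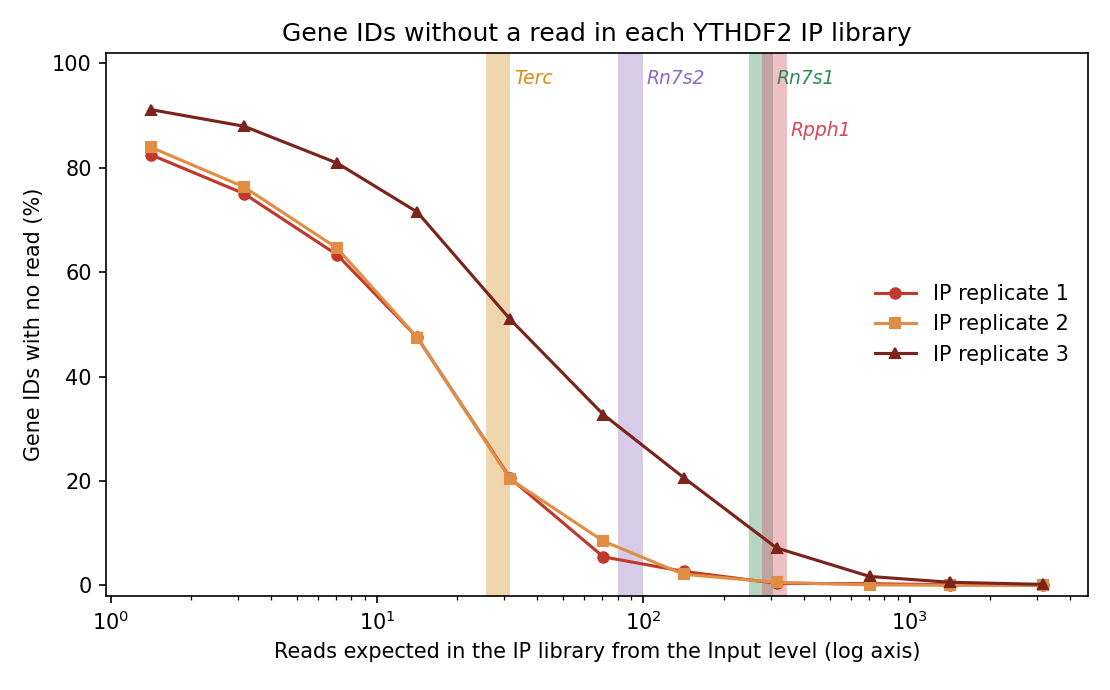
Share of gene IDs with no read (vertical, %) in each of the 3 IP libraries against the number of reads expected from the Input level (horizontal, log axis, binned), with coloured bands at the reads expected for 4 of the RNAs. The share falls with the expected reads and is highest in IP replicate 3, and Terc, expected at 25.5 to 31.7 reads, lies where 19.9% to 50.2% of gene IDs of like Input level had none.

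The Input counts also give an order of level among the 5 gene IDs detected. It is one of counted reads, since reads with several alignments are left out. Between libraries, fewer cells of a type and less RNA per cell cannot be told apart. That limit concerns the spread between libraries rather than the order within one. Per kilobase of RefSeq gene length, Rn7sk had 18050 ± 1963 CPM in the Input (SD, n = 3). Rpph1 followed with 125 ± 16.5 CPM per kilobase and Rn7s1 with 120 ± 69.5 CPM per kilobase (SD, n = 3 each). The values of Rpph1, 106 to 135, lay within those of Rn7s1, 62.9 to 198, so these neighbours in the order do not differ beyond their spread. Rn7s2 had 39.0 ± 19.1 CPM per kilobase and Terc 9.34 ± 1.52 CPM per kilobase (SD, n = 3 each). The ranges of Rn7s1 and Rn7s2, and of Rn7s2 and Terc, did not overlap. With the 7SL copies summed, 7SL had 159 ± 87.6 CPM per kilobase (SD, n = 3), and its range of 81.7 to 254 again took in all values of Rpph1. In the IP, Rn7sk had 1285 ± 322 CPM per kilobase and Rpph1 1.99 ± 0.951 CPM per kilobase (SD, n = 3 each).

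The 7SL copies varied most between the Input libraries. Their coefficient of variation over the 3 Input libraries was 57.7% for Rn7s1 and 49.0% for Rn7s2, where counting error alone gives 5.07% and 8.86%. It was 10.9% for Rn7sk, 13.2% for Rpph1 and 16.3% for Terc, and for Terc counting error alone gives 15.1%. The median over the 8693 genes tested with at least 10 CPM in the Input was 15.7%. Of these genes, 98.9% varied less than Rn7s1 and 97.4% less than Rn7s2, whereas 31.1% varied less than Rn7sk. Both 7SL copies were highest in Input replicate 2 and lowest in Input replicate 1, while Rn7sk and Terc were highest in Input replicate 1 and lowest in Input replicate 2. The number of Rn7sk reads for each Rn7s1 read accordingly differed between Input replicates 1, 2 and 3, at 351, 89.9 and 201, and the 95% exact intervals of these ratios did not overlap.

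Among 8668 other genes averaging 10 CPM or more, those most like Rn7sk across the 6 libraries were found by the root mean square difference of log2 CPM after removal of each gene's own mean. The closest was ENSMUSG00000061983.7 at a difference of 0.15, with a log2 fold change of IP over Input of -3.64, and the next ENSMUSG00000086583.3 at 0.16, with -3.96. The closest 3 genes lay at 0.34 to 0.37 for Rpph1 and at 0.33 to 0.48 for Rn7s1. Rpph1 and Rn7s1, with few IP reads, thus had less close neighbours than 7SK. Rn7s2 and Terc averaged below 10 CPM and were not compared. The measure follows the difference between IP and Input above all, so it repeats the contrast that chose the set.

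The size of the reduction of 7SK and RNase P RNA depended little on single libraries. Leaving out each library in turn gave log2 fold changes of -3.97 to -3.66 for Rn7sk and of -6.16 to -5.63 for Rpph1. When library sizes counted all reads of a file, the log2 fold change of Rn7sk was -4.34 and that of Rpph1 -6.44. The median over all genes then shifted by -0.53, and relative to it Rn7sk lay at -3.69 both there and with TMM factors. Under the alternatives, this relative value ran from -3.85, with 1 CPM required in each library, to -2.58, with no filter beyond 1 read.

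**Figure D4:**
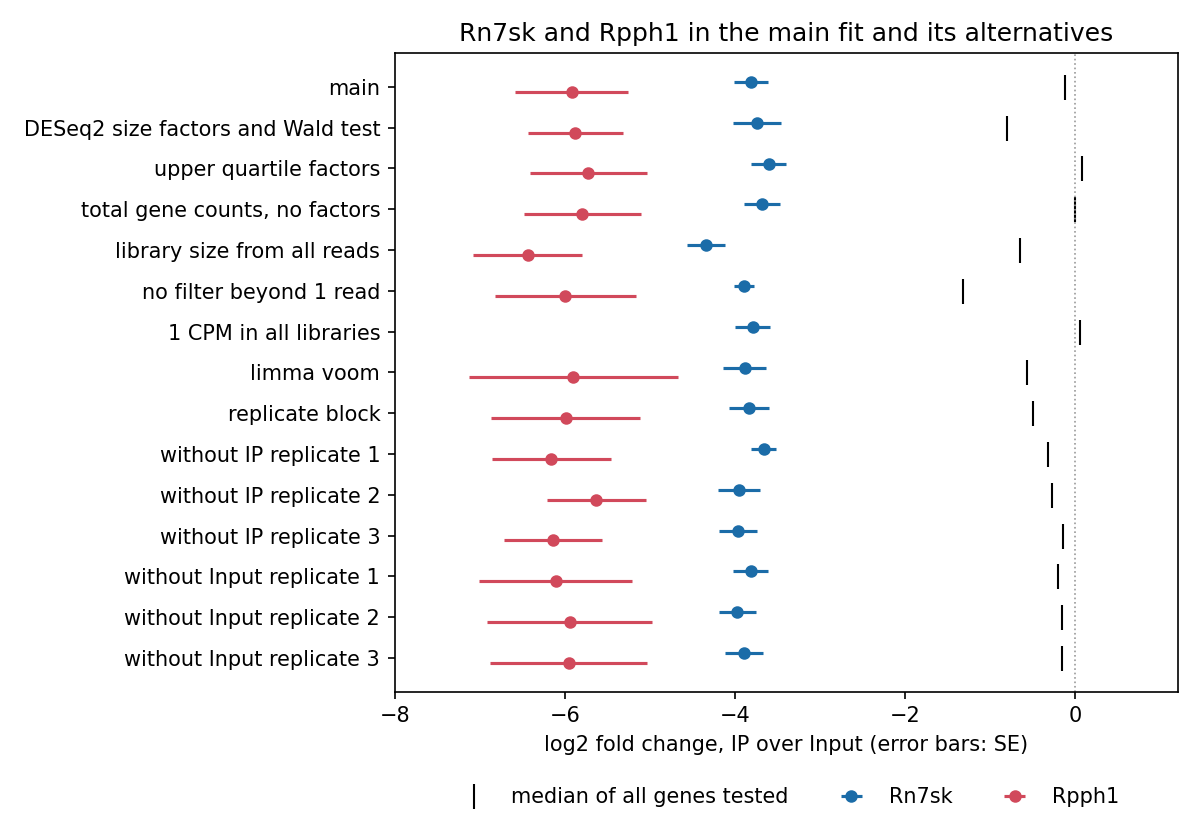
Log2 fold change of IP over Input (horizontal, error bars: SE) for Rn7sk and Rpph1 in the main fit (top) and 14 alternatives (down the page), with a tick at the median of all genes tested in each. Rn7sk lies between -4.34 and -3.61 and Rpph1 between -6.44 and -5.63 wherever it was tested, both below the median in each setting shown.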

How the data were processed

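The authors deposited unnormalised read counts, 1 file per library, with 54446 gene IDs, 92 spike-in IDs and 5 summary rows. The tools named per the submitters' processing notes are Trimmomatic 0.39, HISAT2 2.1.0, HTSeq and DESeq2, on build mm10. The sources used here do not give the annotation release, the strand setting or the handling of duplicates. The kit marks strand, and the counts were assumed to lie on the intended strand. Spike-ins (0 to 2 reads per library) and summary rows stayed out of library sizes and tests. The spread between replicates, not depth, limits Rn7sk, and counting error limits Terc, Rn7s2 and Rn7s1 in the IP.

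Counts were fitted with edgeR 4.0.16 in R 4.3.3 (filterByExpr, TMM, robust quasi-likelihood F-test, group only, two-sided, Benjamini-Hochberg over 15615 genes), and the procedure was tested on simulated data. SEs come from the F statistics. CPM were computed here from TMM-scaled library sizes. Intervals are exact (Clopper-Pearson). Those of read ratios, like the floor of 3 reads, cover counting error only. Those of shares of gene IDs treat the gene IDs as independent and leave out the spread between libraries. Alternatives were DESeq2 1.42.0, limma voom 3.58.1, other scalings and filters, a replicate block and left-out libraries. Members and lists were chosen with earlier results of these data known. The rule for named genes takes all 6 RNAs and at most 2 similar IDs. Lists of partner proteins and cell type markers were set by symbol and not analysed here, as the files pair no symbols with IDs.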

Additional observations from a re-analysis of the deposited data

Results flagged for a closer look

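Reads in no annotated feature were flagged because they lie outside the gene counts and were more frequent in the IP. They made up 71.7% ± 0.434 of the IP reads and 50.4% ± 1.08 of the Input reads (SD, n = 3 each). Groups of 3 libraries are too small for the check of single outlying samples.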

How the results depend on the processing

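The 5 RNAs detected had all IP libraries below all Input libraries under each of the 14 alternatives that kept both 7SL copies apart, where 17.95% to 36.72% of all genes tested had that pattern. Rn7s1, Rn7s2, Rpph1 and Terc, with at most 7 reads in an IP library, could not overlap under the scalings used, so nothing is read from this. Limma voom and the replicate block use the levels of the main fit and are no separate check of the pattern. Rn7sk kept its direction under each alternative. Of the 6 RNAs, 3 to 5 were called depleted under 13 alternatives, against 4 in the main fit. When each library had to reach 1 CPM, 1 was called, as that filter tests only Rn7sk. Of all genes tested, 3.26% to 11.7% were called depleted under the 13 alternatives and 12.5% with that filter, against 6.11% in the main fit. Without Input replicate 2 or Input replicate 3 there were 3 such calls, because Rn7s2 was lost. Terc was called with DESeq2, limma voom and library sizes from all reads. With library sizes from all reads, the log2 fold change of Rn7sk was -4.34 against -3.81, and the log2 bound for Terc at the floor of 3 reads was -3.81 against -3.28. As a share of all reads, the set in the IP was 0.0488 times its share in the Input, against 0.0767 times as a share of gene-assigned reads. These shifts follow from the denominator. Leaving out 1 library gave 0.0688 to 0.0886 times for gene-assigned reads.

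Over all genes, 2085 were depleted with DESeq2, 1924 with library sizes from all reads and 1737 with limma voom, against 954, and the cause was not tested. Leaving out 1 library gave 563 to 1661 depleted genes, the most without IP replicate 3 and the fewest without Input replicate 3. Of the calls, 58.5% were depleted under TMM scaling. Upper quartile scaling gave 42.6% and shifted the median log2 fold change by 0.20, total counts gave 48.2% and 0.12, and sizes from all reads gave 92.5% and -0.53. With a replicate block, 1095 genes, or 7.01% of those tested, and the same number of members, 4, were depleted. The block was not adopted as a pairing because the labels do not say that equal numbers share a lysate. Deviations of same-numbered libraries correlated at only 0.0999, 0.026 and 0.0242, yet each of the 6 libraries correlated best with its own number. These correlations do not settle the pairing. Depth limits Terc most: its bound of 9.73-fold cannot tell a moderate from a complete loss. The alternatives for lists of partner proteins were not run, as those lists need symbols.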
